A study of Mus musculus with 24 samples.

Results

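H3K4me3, the histone mark of active promoters, was followed at the promoters of 9 genes of the neuronal surface and the membrane skeleton beneath it: Ank2, Ank3, Nfasc, Gpm6a, Cntnap2, Nrxn3, Nlgn1, Lsamp and Dlg2. The regions taken were those of the deposited count tables that overlapped an annotated transcription start site (TSS) of one of these genes, with alternative promoters kept apart. They numbered 21 of 17993 regions, of which 13404 overlapped a TSS of any gene. The 9 genes were chosen by the fall of Ank3 and Gpm6a in tandem ChIP of one of the mouse lines (the log2 fold change of tandem over single ChIP in the line named Rosa below), so the values of that contrast are described here without a test. Ank2 had 4 regions, Cntnap2 and Nrxn3 had 3 each, Dlg2 had 7, and Ank3, Nfasc, Gpm6a and Lsamp had 1 each. Nlgn1 had none at a TSS of the annotation used (GENCODE M1 on mm9). Below, P1, P2 and so on number the regions of a gene in the direction of its transcription.

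The libraries came from the cerebral cortex of C57BL/6 mice that carried FLAG-tagged histone H2B, expressed from the CAG promoter at the Rosa26 locus. In the line labelled Rosa CAG-H2B-FLAG (Rosa line), a Vasa-Cre cross had removed the stop cassette in the germ line, so that all tissues could express the tag. These mice were kept as heterozygotes, and their age was not given in the sources used here. In the line labelled Rosa26 CAG-floxed-pA-H2B-FLAG/ CaMKCreERT2 (Camk2a line), double-heterozygous males received tamoxifen at 8 weeks of age and were killed a month later, and recombination was limited to cells in which the Camk2a promoter drove the Cre. Both lines therefore carried the tag, and no untagged mice were among the groups used. Single ChIP-Seq used an H3K4me3 antibody on the whole lysate, whereas tandem ChIP-Seq (tChIP) first pulled down FLAG-bearing chromatin and then applied the same H3K4me3 antibody. There were 3 libraries in each of the 4 groups, and each lysate was made from 2 animals. The p-values rest on the spread between libraries, which was close to sampling noise (chi-square per degree of freedom of 1.03 to 1.09). They therefore hold little measured spread between animals.

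Ankyrins link membrane proteins to the spectrin and actin skeleton. Ankyrin-G, the product of Ank3, assembles the axon initial segment and the nodes of Ranvier, where it holds sodium channels and the adhesion protein neurofascin (Nfasc). Ankyrin-B (Ank2) acts along the axon shaft and in dendrites. Caspr2 (Cntnap2) clusters potassium channels beside the nodes, neurexin-3 (Nrxn3) is a presynaptic adhesion receptor and neuroligin-1 (Nlgn1) is a postsynaptic partner of neurexins. Lsamp is a GPI-anchored IgLON, Gpm6a is a neuronal membrane glycoprotein of the proteolipid family, and Dlg2 (PSD-93) is a scaffold of the postsynaptic density. Most of these genes are very long and start from several promoters. The annotated lengths ran from 106 kb for Gpm6a to 2241 kb for Cntnap2.

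The bases upstream of 5 starts are printed here because these promoters carry the contrasts described below: the pair by which the genes were chosen, the first and the last promoter of Ank2, which moved in opposite directions between the lines, and the Nrxn3 promoter with the largest line difference in tChIP. Each run is the 200 bases that end just before the annotated TSS (mm9), written 5′ to 3′ on the strand of the gene, overlaps no annotated exon, and has every CpG in capitals.
Ank3 P1, chr10:68996770-68996969, plus strand: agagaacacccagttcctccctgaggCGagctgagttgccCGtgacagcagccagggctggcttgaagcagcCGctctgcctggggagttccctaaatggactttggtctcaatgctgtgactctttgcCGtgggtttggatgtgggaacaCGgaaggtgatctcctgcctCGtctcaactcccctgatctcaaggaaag
Gpm6a P1, chr8:56039881-56040080, plus strand: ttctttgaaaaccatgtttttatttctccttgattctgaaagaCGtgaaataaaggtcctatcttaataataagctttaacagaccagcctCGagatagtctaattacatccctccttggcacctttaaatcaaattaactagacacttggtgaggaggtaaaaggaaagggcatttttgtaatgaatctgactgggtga
Ank2 P1, chr3:127111950-127112149, minus strand: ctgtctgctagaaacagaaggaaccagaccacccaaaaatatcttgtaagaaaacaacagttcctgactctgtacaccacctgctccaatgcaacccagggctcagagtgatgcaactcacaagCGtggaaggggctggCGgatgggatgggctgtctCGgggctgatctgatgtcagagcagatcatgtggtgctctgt
Ank2 P4, chr3:126701371-126701570, minus strand: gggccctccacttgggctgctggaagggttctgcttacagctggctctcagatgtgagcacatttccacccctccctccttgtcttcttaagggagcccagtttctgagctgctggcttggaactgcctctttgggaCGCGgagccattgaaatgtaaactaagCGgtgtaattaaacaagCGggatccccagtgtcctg
Nrxn3 P2, chr12:90191634-90191833, plus strand: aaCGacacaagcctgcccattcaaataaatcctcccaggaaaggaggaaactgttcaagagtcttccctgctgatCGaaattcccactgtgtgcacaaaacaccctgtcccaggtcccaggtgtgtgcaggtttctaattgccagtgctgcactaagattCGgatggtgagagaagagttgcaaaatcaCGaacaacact
These runs hold 6, 2, 3, 4 and 4 CpG, respectively. Most of the Ank2 P4 run lies outside its counted region, whose edge is 18 bp upstream of the start. The poverty in CpG was general among the 21 regions. Within 500 bp of the start, the observed over expected CpG ratio had a median of 0.405 (range 0.173 to 0.638), against 0.716 over the 13404 TSS regions. All 21 lay below that median, and 18 lay below the lower quartile of 0.572. The median width was 2772 bp (range 555 to 5348 bp), against 2060 bp over the TSS regions, and 13 of the 21 exceeded the latter. These values are a description, with no test.

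**Figure D1:**
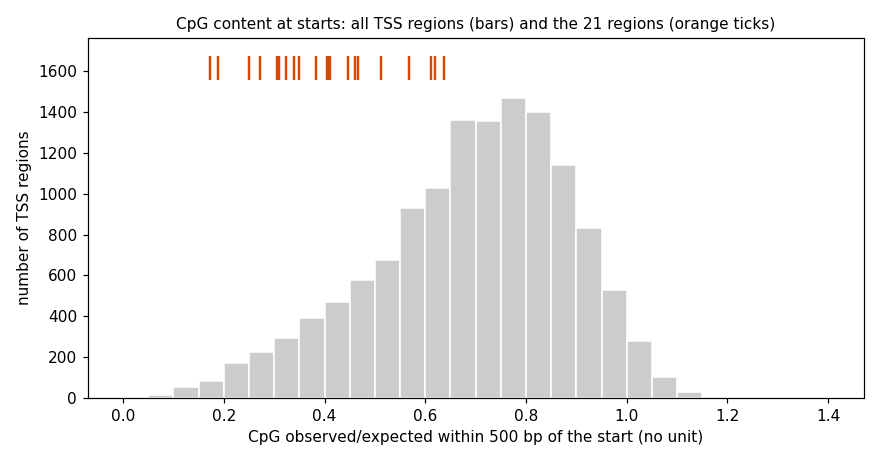
Observed over expected CpG ratio within 500 bp of the start (horizontal axis, no unit) for 13404 TSS regions (bars, number of regions) and for the 21 regions of the studied genes (orange ticks, with no vertical scale). The ticks lie between 0.173 and 0.638, left of the median of all TSS regions at 0.716.

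The 12 libraries held 1457261 to 8644574 counts, with the fewest in tChIP of the Rosa line (1457261 to 1828371) and the most in single ChIP of the same line (6316125 to 8644574). The 21 regions together took 0.108% to 0.111% of the counts in single ChIP of the Rosa line, 0.0755% to 0.0767% in its tChIP, 0.111% to 0.118% in single ChIP of the Camk2a line and 0.128% to 0.132% in its tChIP. A region had between 6 and 1400 counts in a library, and the regions with the fewest counts (Cntnap2 P3 and Dlg2 P6) never exceeded 41 counts. Levels are given as CPM, counts scaled to a common library size with TMM factors over the 12 libraries. A lower level can mean fewer cells with the mark, less mark per cell or, in tChIP, an effect of the FLAG pull-down. These cannot be told apart in bulk samples. Markers of the cell types moved with tChIP as well. For excitatory neurons, 5 of 6 marker genes had a region (Tbr1 had none), and their summed level was 657 to 663 CPM in single ChIP and 321 to 348 CPM in tChIP of the Rosa line, and 653 to 671 CPM and 732 to 787 CPM in the Camk2a line. Summed inhibitory neuron markers (5 of 6 genes, Slc32a1 with no region) had 106 to 112 CPM in single ChIP and 131 to 149.8 CPM in tChIP of the Rosa line, and 106 to 118 CPM and 67.1 to 70.9 CPM in the Camk2a line. Astrocyte markers (5 of 6, Gfap with none) had 269 to 278 CPM in single ChIP and 344 to 399.6 CPM in tChIP of the Rosa line, and 255 to 290.0 CPM and 157 to 171 CPM in the Camk2a line. Oligodendrocyte markers (4 of 6, Mobp and Sox10 with none) had 362 to 388 CPM in single ChIP and 263 to 296 CPM in tChIP of the Rosa line, and 336 to 341 CPM and 179 to 194 CPM in the Camk2a line. Endothelial markers (5 of 6, Cldn5 with none) had 147 to 160.1 CPM in single ChIP and 196 to 199 CPM in tChIP of the Rosa line, and 151 to 161 CPM and 36.8 to 46.4 CPM in the Camk2a line, and none of the 6 microglial markers had a region. Excitatory markers were thus lowest in Rosa tChIP, where the studied promoters were low, and the other 4 lists were lowest in Camk2a tChIP. The sums hide single regions. In tChIP against single ChIP of the Camk2a line, 4 of 5 excitatory regions were called higher and 1 lower (adjusted p under 0.01). Of 5 oligodendrocyte regions, 4 were lower and 1 higher, and no inhibitory, astrocyte or endothelial region was higher. Of all regions, 25.3% were called higher and 22.6% lower there. The part of these shifts in the values below was not tested.

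Per length of region, H3K4me3 at the studied promoters was low for a TSS. In single ChIP of the Rosa line the 21 regions had a median level of 13.8 CPM per kb, against 29.3 CPM per kb over all TSS regions, and 1 of 21 exceeded the latter. In tChIP of the Rosa line the median level was 10.7 CPM per kb and none exceeded the TSS median of 27.9. In the Camk2a line the median level was 14.9 CPM per kb in single ChIP and 21.1 CPM per kb in tChIP, where 3 of 21 exceeded the TSS median of 29.2. Over all 12 libraries the highest levels per kb were at Nfasc P1 (28.2 CPM per kb), Ank2 P3 (27.8), Ank2 P1 (26.8), Ank3 P1 (23.4) and Lsamp P1 (23.3), and the lowest was at Dlg2 P5 (7.16).

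Ank3 had 1 TSS region, P1 (chr10:68996044-69000013), which holds the starts of 5 of its 7 transcripts. In single ChIP its level was 101, 108 and 91.5 CPM in the Rosa line and 112, 109 and 96.9 CPM in the Camk2a line. In tChIP it was 44.9, 45.3 and 42.6 CPM in the Rosa line and 120.4, 125 and 117 CPM in the Camk2a line. The tChIP libraries of the Rosa line lay far below all others, and those of the Camk2a line lay above all others. The difference between tChIP and single ChIP in the Rosa line, by which the gene was chosen, was -1.17 ± 0.09 on the log2 scale (± SE). That placed the region at rank 17929 of 17993 from the highest. The Camk2a line shares no library with that contrast. There, tChIP exceeded single ChIP by 0.19 ± 0.06 on the log2 scale (edgeR quasi-likelihood test, adjusted p = 0.00592), although this call was lost with DESeq2 (adjusted p = 0.0636) and without the Camk2a single ChIP replicate 3 (0.0868) or the Camk2a tChIP replicate 1 (0.018) or 2 (0.0449). The line difference in tChIP was 1.45 and that in single ChIP 0.07 on the log2 scale, both given without a test because they use the libraries that chose the gene.

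Gpm6a P1 (chr8:56039183-56044113) holds the only start of the gene in the annotation. Single ChIP gave 131, 115 and 128 CPM in the Rosa line and 142, 135 and 137 CPM in the Camk2a line. The tChIP levels were 57.9, 53.7 and 44.6 CPM in the Rosa line and 99.1, 116 and 114 CPM in the Camk2a line. The Rosa tChIP libraries again stood lowest, and here the Camk2a tChIP libraries lay below those of single ChIP in their own line. The Rosa contrast was -1.22 ± 0.08 on the log2 scale, rank 17937 of 17993, with no test. In the Camk2a line tChIP was lower than single ChIP (log2 fold change -0.33 ± 0.06, edgeR adjusted p = 6.21e-07), the opposite direction to Ank3 P1 in the same libraries. Gpm6a P1 and Ank3 P1 thus shared the low level in Rosa tChIP but were called in opposite directions in the Camk2a line.

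Described over all 21 regions, the tChIP to single ChIP difference in the Rosa line had a median of -0.50 on the log2 scale, with 16 regions below 0 and 5 above. In 14 regions every tChIP library lay below every single ChIP library, and in 1 every tChIP library lay above. Among all 17993 regions the libraries were separated in the same way below in 32.1% and above in 30.2%, and 47.2% were called in this contrast (22.5% lower and 24.7% higher). Since the contrast chose the genes, nothing is read from these counts. The one region with separated libraries above was Dlg2 P6 (chr7:99329189-99329818), with 2.90, 3.59 and 3.27 CPM in single ChIP and 7.83, 7.16 and 8.53 CPM in tChIP, at 12 to 30 counts per library.

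**Figure D2:**
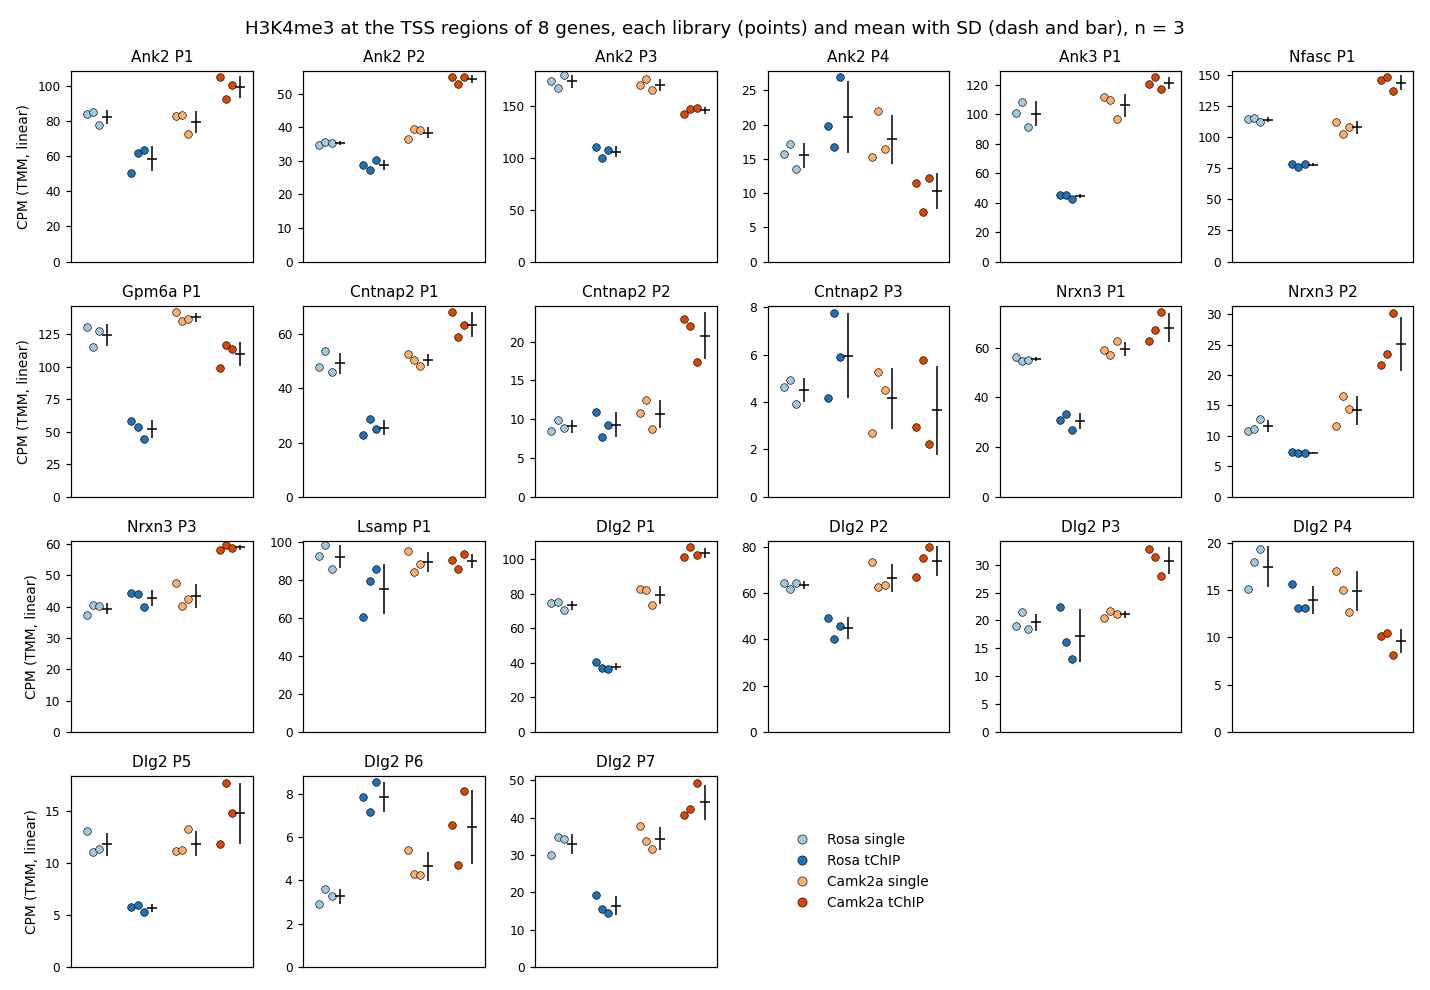
H3K4me3 level in CPM (vertical axis, linear, from 0) at each of the 21 TSS regions in every library. Points are libraries, the dash and bar beside them are the mean and SD (n = 3), and colours are the 4 groups. In Ank3 P1 the Rosa tChIP libraries lie between 42.6 and 45.3 CPM and all other libraries at 91.5 CPM or above; in Ank2 P4 the Camk2a tChIP libraries are the lowest.

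In the Camk2a line, tChIP against single ChIP compares chromatin tagged through the Camk2a-driven Cre with the whole lysate. This contrast also holds any effect of the FLAG pull-down itself, which cannot be told apart in it. In the Rosa line, where all tissues could express the tag, 47.2% of all regions were called in the same contrast. Of the 21 regions, 11 were higher in tChIP, 4 were lower and 6 were not called at adjusted p under 0.01, with a median log2 fold change of 0.32. Of all 17993 regions, 47.9% were called (25.3% higher and 22.6% lower), and their median log2 fold change was near 0 (-0.01). Of the 13404 TSS regions, 21.7% were higher and 27.2% lower. The share of called regions among the 21 (15 of 21) is thus above the background of all regions. The share higher (52.4%) is above both backgrounds. The share lower (19.0%) is close to that of all regions and below that of TSS regions. The higher regions spanned Ank2 P1 and P2, Ank3 P1, Nfasc P1, Cntnap2 P1 and P2, Nrxn3 P2 and P3, and Dlg2 P1, P3 and P7. The lower regions were Ank2 P3, Ank2 P4, Gpm6a P1 and Dlg2 P4. The largest rise was at Cntnap2 P2 (0.96 ± 0.17, edgeR adjusted p = 3.31e-07) and the largest fall at Ank2 P4 (-0.80 ± 0.18, adjusted p = 8.07e-05). Lsamp P1 differed by 0.01 ± 0.07 (adjusted p = 0.904). DESeq2 lost the calls at Cntnap2 P1 (adjusted p = 0.0161), Dlg2 P4 (0.0389) and Dlg2 P7 (0.036). Cntnap2 P1 also lost its call without the Camk2a tChIP replicate 1 (0.0173), Dlg2 P4 without the Camk2a single replicate 1 (0.028) or tChIP replicate 3 (0.0279), and Dlg2 P7 without the single replicate 2 (0.0107) or 3 (0.0207) or the tChIP replicate 3 (0.0522).

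Tagged chromatin of the Camk2a line was then compared with that of the Rosa line, in which the tag is not limited by that Cre. Tamoxifen and the CaMKCreERT2 transgene were described for the Camk2a line alone, and the paper's methods give male sex and age for that line alone. The Rosa line expressed the tag through development, and the Camk2a line only after tamoxifen. The effects of all these cannot be told apart from the line. Leaving out Ank3 P1 and Gpm6a P1, 14 of 19 regions were higher in the Camk2a line, 1 was lower and 4 were not called. The median log2 fold change of the 19 was 0.81, against 0.00 over all regions, of which 31.6% were called (17.0% higher and 14.6% lower). These tests use the Rosa tChIP libraries, which also entered the contrast that chose the genes.

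**Figure D3:**
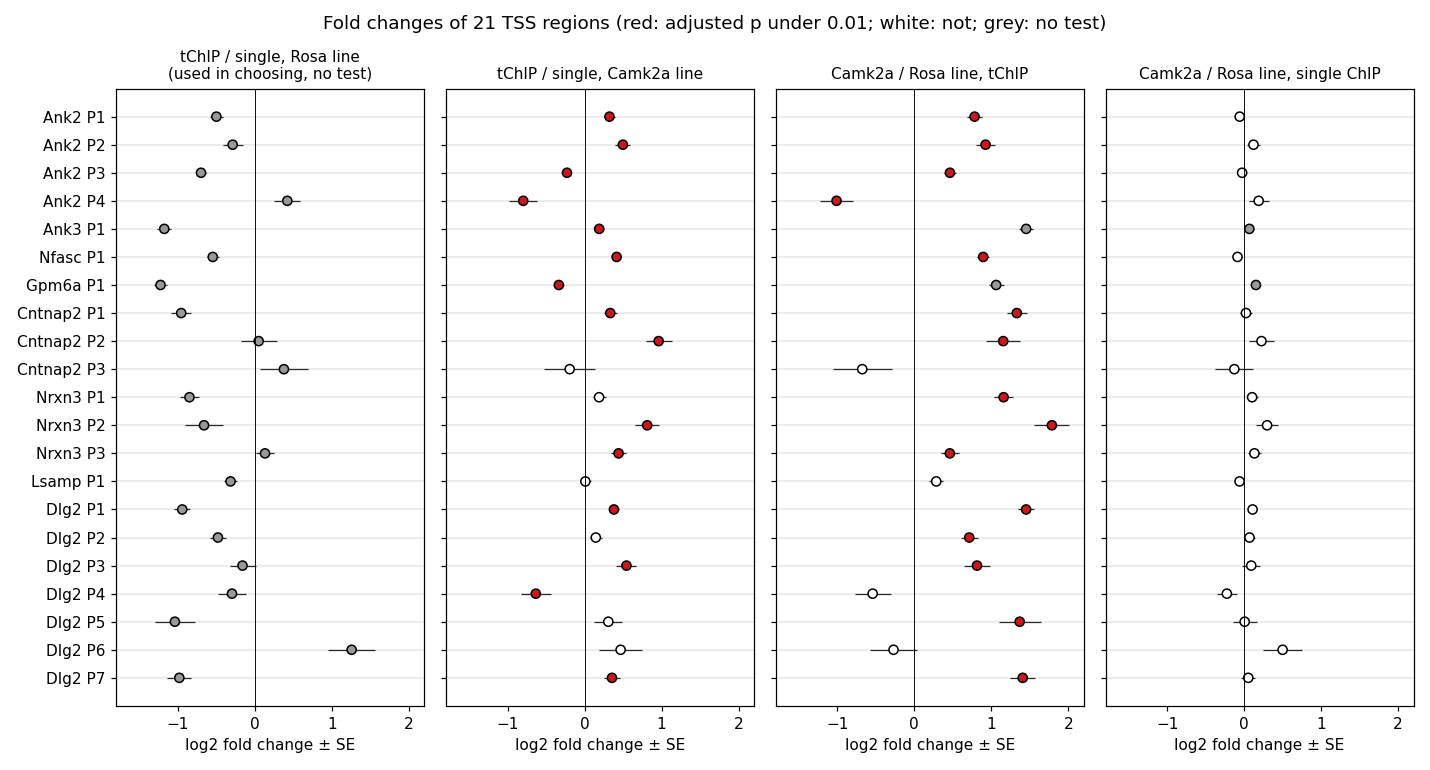
log2 fold change with SE (horizontal axis) of the 21 TSS regions in 4 comparisons of 3 libraries each. Red points had an adjusted p under 0.01, white points did not, and grey points are given without a test. In tChIP between the lines 14 tested regions lie right of 0 with a call and Ank2 P4 left of it at -1.01, and in single ChIP none is called.

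Ank2 has 4 promoters with H3K4me3, and they did not move together. The region with the highest level, P3 (chr3:126860979-126866326), also holds the start of the annotated gene Gm16958, so its counts cannot be assigned to Ank2 alone. P3 had 110.1, 99.6 and 108 CPM in Rosa tChIP and 142, 147 and 148 CPM in Camk2a tChIP. In single ChIP it had 174, 168 and 179.6 CPM in the Rosa line and 169.6, 176 and 165 CPM in the Camk2a line. Both tChIP groups were below both single ChIP groups, the Rosa line more so. The line difference in tChIP was 0.46 ± 0.07 on the log2 scale (edgeR adjusted p = 1.17e-07). P1 (chr3:127109397-127112373), at the annotated start of the gene, had 50.6, 61.4 and 63.6 CPM in Rosa tChIP and 105, 92.4 and 101 CPM in Camk2a tChIP. Its single ChIP levels were 83.7, 85.2 and 77.9 CPM in the Rosa line and 83.0, 83.0 and 72.3 CPM in the Camk2a line. Here the Camk2a tChIP libraries were the highest and the Rosa tChIP libraries the lowest, without overlap, and the lines differed by 0.78 ± 0.10 (adjusted p = 4.61e-11).

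The internal promoter Ank2 P2 (chr3:126927139-126929717) also had its highest libraries in Camk2a tChIP and its lowest in Rosa tChIP. It had 28.7, 27.4 and 30.2 CPM in Rosa tChIP, 55.1, 53.0 and 54.9 CPM in Camk2a tChIP, 34.8, 35.8 and 35.3 CPM in Rosa single ChIP and 36.7, 39.6 and 39.1 CPM in Camk2a single ChIP. The line difference in tChIP was 0.93 ± 0.13 (edgeR adjusted p = 2.99e-09). The last promoter, P4 (chr3:126699416-126701388), went the other way. Its levels were 19.8, 16.7 and 26.9 CPM in Rosa tChIP and 11.5, 7.22 and 12.2 CPM in Camk2a tChIP, and 15.8, 17.2 and 13.6 CPM and 15.3, 22.0 and 16.4 CPM in single ChIP of the Rosa and Camk2a lines. All Camk2a tChIP libraries were below all others. P4 was lower in tChIP of the Camk2a line than of the Rosa line (log2 fold change -1.01 ± 0.21, adjusted p = 5.54e-05), and lower in tChIP than in single ChIP of the Camk2a line, at 20 to 144 counts per library. Within a library, log2 of the P4 to P3 ratio averaged -2.32 in Rosa tChIP (range -2.53 to -1.97) and -3.81 in Camk2a tChIP (-4.28 to -3.56). In single ChIP that ratio averaged -3.48 and -3.25, with overlapping ranges. These ratios were computed after the values were seen and carry no test.

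Nfasc P1 (chr1:134635090-134639029) lies at the annotated start of the gene. In tChIP it had 78.3, 76.3 and 78.7 CPM in the Rosa line and 146, 148 and 137 CPM in the Camk2a line. Single ChIP gave 115, 115 and 112 CPM and 113, 102 and 109 CPM, respectively. The tChIP groups stood on either side of single ChIP with no overlap, and replicates within a tChIP group differed little (SD 1.27 and 6.02 CPM, n = 3). The lines differed in tChIP by 0.89 ± 0.08 (edgeR adjusted p = 1.17e-16). A second Nfasc region, with no TSS inside it, ended 8 bp short of an annotated start within the gene (chr1:134602290-134603895). It had 6.26, 7.16 and 6.56 CPM in Rosa tChIP and 5.25, 2.53 and 3.32 CPM in Camk2a tChIP, below the 9.11, 7.87 and 8.97 CPM of Camk2a single ChIP. Its line difference in tChIP was -0.81 ± 0.36 (adjusted p = 0.0617), and in the Camk2a line tChIP was lower than single ChIP (-1.20 ± 0.28, adjusted p = 8.80e-05), so the 2 regions of this gene were called in opposite directions in the Camk2a line. On the inner side of the overlap rule, Cntnap2 P3 and Dlg2 P6 hold their start 1 bp and 5 bp from the edge of the region. Ank2 P4, the 1 region called lower between the lines in tChIP, holds its start 18 bp from the edge. Nearly all of its counted region therefore lies downstream of that start, inside the gene.

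Cntnap2 P1 (chr6:45008830-45011801), at the start of the longest of the genes, had 23.0, 28.6 and 24.9 CPM in Rosa tChIP and 68.2, 59.2 and 63.4 CPM in Camk2a tChIP. Its single ChIP levels were 48.1, 53.7 and 46.0 CPM in the Rosa line and 52.7, 50.6 and 48.3 CPM in the Camk2a line. The Rosa tChIP libraries were near the middle of the way to 0 from single ChIP, and the line difference in tChIP was 1.33 ± 0.13 (edgeR adjusted p = 7.98e-15). P2 (chr6:46994438-46995237), the start of a noncoding transcript about 1985 kb downstream, had 11.0, 7.75 and 9.19 CPM in Rosa tChIP and 23.0, 22.0 and 17.3 CPM in Camk2a tChIP. In single ChIP it had 8.40, 9.93 and 8.83 CPM and 10.8, 12.4 and 8.72 CPM. Only the Camk2a tChIP libraries stood apart from the rest, at a difference of 1.15 ± 0.22 from Rosa tChIP (adjusted p = 7.59e-06). P3, the start of a short transcript near the 3′ end, ranged from 2.21 to 7.75 CPM, and its line difference in tChIP was -0.68 ± 0.38 (adjusted p = 0.156).

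Nrxn3 P1 (chr12:89960934-89964709), at the 5′ end, had 30.8, 33.4 and 26.9 CPM in Rosa tChIP and 62.7, 67.1 and 74.4 CPM in Camk2a tChIP, and 56.3, 54.7 and 55.0 CPM and 59.1, 57.0 and 62.6 CPM in single ChIP. The lines differed in tChIP by 1.16 ± 0.12 (edgeR adjusted p = 2.38e-13). P2 (chr12:90191476-90192760), 231 kb downstream, had the largest line difference of the tested regions. It had 7.30, 7.16 and 7.22 CPM in Rosa tChIP and 21.7, 23.5 and 30.2 CPM in Camk2a tChIP. Single ChIP gave 10.9, 11.1 and 12.8 CPM and 11.6, 16.5 and 14.5 CPM. All Camk2a tChIP libraries exceeded all others, and the difference was 1.79 ± 0.23 (adjusted p = 1.65e-10), at 11 to 93 counts per library. P3 (chr12:91049840-91052985), the internal promoter of 3 coding transcripts, had 44.4, 44.1 and 40.02 CPM in Rosa tChIP and 58.1, 59.9 and 58.9 CPM in Camk2a tChIP, and 37.4, 40.7 and 40.2 CPM and 47.5, 40.1 and 42.6 CPM in single ChIP. Its Rosa tChIP level was not below single ChIP, and the line difference was the smallest of the gene (0.46 ± 0.11, adjusted p = 4.99e-04). As a description, log2 of the P3 to P1 ratio within a library averaged 0.492 in Rosa tChIP and -0.202 in Camk2a tChIP, against -0.488 and -0.457 in single ChIP, so this log2 ratio was above 0 only in Rosa tChIP among the 4 group means.

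Lsamp P1 (chr16:41532524-41536245) had the smallest line difference in tChIP among the regions with the highest level of each gene. Its levels were 60.5, 79.3 and 85.9 CPM in Rosa tChIP, 90.9, 85.9 and 93.6 CPM in Camk2a tChIP, 92.7, 98.6 and 86.1 CPM in Rosa single ChIP and 95.3, 84.5 and 88.7 CPM in Camk2a single ChIP. The Rosa tChIP libraries were spread widely, and the highest of them reached the other groups. The line difference in tChIP was 0.28 ± 0.09 and missed the threshold (edgeR adjusted p = 0.0104). It passed in the fit over all 12 libraries (0.00888), with the minimum of 10 counts in every library (0.00933), and without the Rosa tChIP replicate 3 (0.00227), the Camk2a tChIP replicate 2 (0.00894) or the Rosa tChIP replicate 2 (0.01, just under the threshold). Under the other alternatives of the fit it did not pass at adjusted p under 0.01, with adjusted p of 0.0722 with DESeq2 and 0.0594 with library totals. Without the Rosa tChIP replicate 1, the lowest of its group, the log2 fold change was 0.134 (adjusted p = 0.337).

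Dlg2 had the most promoters. P1 (chr7:98238137-98241860) had the highest level, with 40.2, 37.0 and 36.1 CPM in Rosa tChIP and 101, 107 and 102 CPM in Camk2a tChIP, and 74.3, 75.02 and 70.2 CPM and 82.7, 81.8 and 73.3 CPM in single ChIP. The tChIP groups lay on either side of single ChIP with no overlap, and the line difference was 1.45 ± 0.10 (edgeR adjusted p = 2.10e-21). P2 (chr7:98410283-98413054) had 49.0, 39.96 and 45.9 CPM and 66.9, 75.1 and 79.9 CPM in tChIP of the Rosa and Camk2a lines, and 64.6, 61.6 and 64.3 CPM and 73.6, 62.8 and 63.6 CPM in single ChIP. Its Camk2a tChIP and single ChIP libraries overlapped, and the lines differed in tChIP by 0.71 ± 0.11 (adjusted p = 5.08e-08). P3 (chr7:98690865-98692771) had 22.4, 16.1 and 13.1 CPM and 32.8, 31.4 and 28.0 CPM in tChIP, and 19.0, 21.4 and 18.5 CPM and 20.4, 21.7 and 21.2 CPM in single ChIP. In P3 the Rosa tChIP libraries overlapped single ChIP and the Camk2a tChIP libraries exceeded them all, with a line difference of 0.81 ± 0.17 (adjusted p = 5.61e-05).

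Of the later Dlg2 promoters, P5 (chr7:98859761-98861296) had 5.74, 5.96 and 5.25 CPM in Rosa tChIP and 11.8, 17.7 and 14.7 CPM in Camk2a tChIP, and 13.0, 11.0 and 11.3 CPM and 11.1, 11.2 and 13.2 CPM in single ChIP. The Rosa tChIP libraries of P5 stood alone below the rest, and the line difference was 1.37 ± 0.27 (edgeR adjusted p = 1.80e-05). P7 (chr7:99383009-99385395) holds the start of noncoding transcripts of GENCODE M1 near the 3′ end, and also a RefSeq start of Dlg2. It had 19.3, 15.5 and 14.4 CPM and 40.7, 42.2 and 49.4 CPM in tChIP, and 30.0, 34.7 and 34.2 CPM and 37.7, 33.6 and 31.7 CPM in single ChIP. Its 3 levels (Rosa tChIP, single ChIP of both lines and Camk2a tChIP) were separated in that order, with a line difference of 1.41 ± 0.16 (adjusted p = 3.69e-12). P4 and P6, at the starts of transcripts annotated as retaining introns, were the 2 Dlg2 promoter regions not called. P4 had 14.0 ± 1.46 CPM in Rosa tChIP and 9.58 ± 1.29 CPM in Camk2a tChIP (SD, n = 3), a difference of -0.54 ± 0.23 that was not called (adjusted p = 0.0552). P6 had 7.84 ± 0.686 CPM and 6.45 ± 1.71 CPM, a difference of -0.27 ± 0.30 (adjusted p = 0.511). Within a library, log2 of the ratio to P1 (Camk2a tChIP minus Rosa tChIP) differed by -1.99 for P4 and by -1.77 for P6, with no overlap of the libraries, and by -0.73 for P2 and -0.60 for P3, also with no overlap, whereas for P5 and P7 the ranges overlapped. These ratios are again a description. Their denominator, P1, was itself called higher in Camk2a tChIP, so each shift contains that rise. The ratio fell also for P2 and P3, whose own levels were called higher. A separated ratio therefore does not show a fall of P4 or P6 between the lines, where neither was called.

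**Figure D4:**
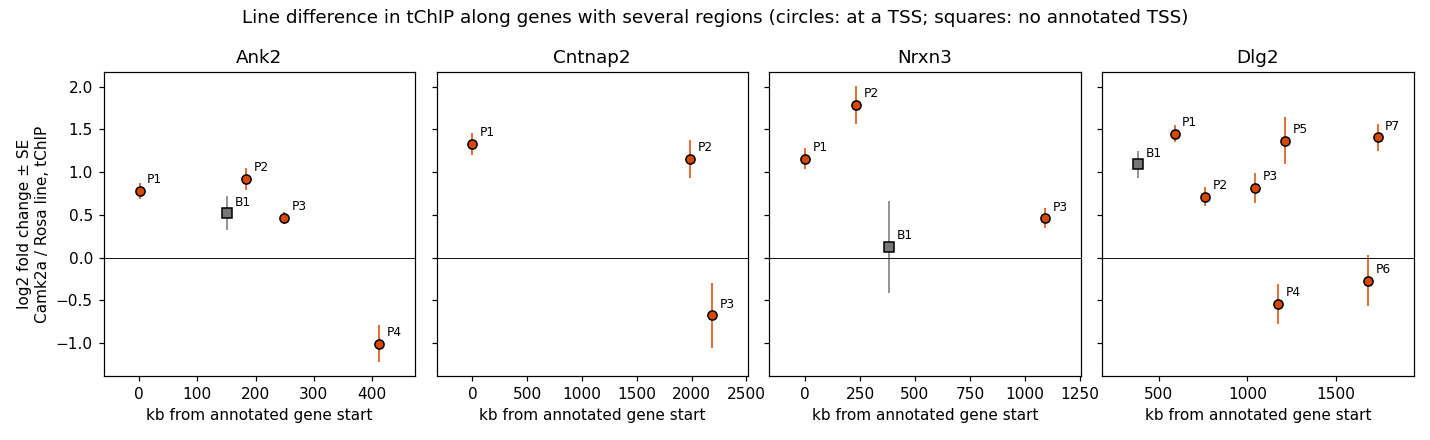
log2 fold change between the Camk2a and Rosa lines in tChIP with SE (vertical axis) against the distance of the region from the annotated start of the gene (horizontal axis, kb) for the 4 genes with several TSS regions. Circles are regions at a TSS and squares regions at none; Ank2 P4, Cntnap2 P3, Dlg2 P4 and Dlg2 P6 lie below 0 while the other TSS regions of the same genes lie above.

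In single ChIP, where the chromatin of all cells enters, no line difference was called at these promoters. Of the 19 tested regions 0 passed, 1 had an unadjusted p under 0.05, and DESeq2 also called none. Of all regions 2.15% were called (0.928% higher and 1.22% lower). The log2 fold changes ran from -0.22 at Dlg2 P4 to 0.50 at Dlg2 P6, with a median of 0.07. The interaction of line and assay tests whether the line difference in tChIP exceeds that in single ChIP. It equals the tChIP to single ChIP difference of the Camk2a line minus that of the Rosa line, so it contains the contrast that chose the genes and is not independent of it. It was called higher for 14 of 19 regions and lower for 1 (Ank2 P4), against 26.9% of all regions called (13.7% higher and 13.2% lower), and its median was 0.80 on the log2 scale. Nrxn3 P2 had the largest value (1.48 ± 0.28, edgeR adjusted p = 2.09e-06), followed by Dlg2 P5 (1.36 ± 0.32, adjusted p = 1.63e-04). Nrxn3 P3, called in tChIP between the lines, was not called here (0.32 ± 0.14, adjusted p = 0.0714), and Lsamp P1 was (0.34 ± 0.11, adjusted p = 0.00864). That call was lost with DESeq2 (0.0299) and with library totals (0.0673), and without the Rosa tChIP replicate 1 the value was 0.184 (adjusted p = 0.25).

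Inside the 9 genes, 11 further regions overlapped no annotated TSS, 6 of them in Ank3. The one with the most counts, chosen here after its values were seen, lay 174 kb into Ank3 (chr10:69168402-69173714), 74.6 kb from the nearest annotated start of the gene. It had 81.4, 79.9 and 68.9 CPM in Rosa tChIP and 159, 142 and 172 CPM in Camk2a tChIP. Single ChIP gave 142, 149 and 151 CPM and 136, 131 and 156 CPM. Per kb its level over the 12 libraries was 24.6 CPM per kb, beside 23.4 CPM per kb at Ank3 P1. The Rosa tChIP libraries were the lowest, and the lines differed in tChIP by 1.04 ± 0.08. This is given without a test because Ank3 was chosen by its fall in Rosa tChIP. The largest line difference in tChIP among the 11 was at another Ank3 region (chr10:69057078-69057350). It was 1.65 ± 0.63, at 1 to 16 counts per library, also without a test. The most negative was at the Nfasc region described above. A Dlg2 region upstream of P1 (chr7:98034990-98036840) had 19.8, 14.9 and 19.0 CPM in Rosa tChIP and 37.7, 37.2 and 39.8 CPM in Camk2a tChIP, a difference of 1.09 ± 0.16 (edgeR adjusted p = 1.42e-08).

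RefSeq places starts where GENCODE M1 does not, and 5 further regions were found by placing the RefSeq promoter sequences on mm9 by exact match, a step added after the data were seen. Of these, 2 belong to Nlgn1. The distal one (chr3:26228397-26233040), which also holds a start of A830092H15Rik, had 85.0, 78.7 and 72.2 CPM in Rosa tChIP and 186, 180.4 and 182 CPM in Camk2a tChIP. In single ChIP it had 129, 125 and 126 CPM in the Rosa line and 141, 139.8 and 149 CPM in the Camk2a line. The tChIP groups lay on either side of single ChIP, and the line difference in tChIP was 1.21 ± 0.08 (edgeR adjusted p = 1.69e-24), while single ChIP also differed, by 0.17 ± 0.05 (adjusted p = 0.00920). The single ChIP call was lost with DESeq2 (0.0895), in the fit over all 12 libraries (0.0105) and without any 1 of the 6 single ChIP libraries (0.0111 to 0.0894). The proximal one (chr3:26050032-26053118) had 74.6, 71.6 and 71.5 CPM and 87.9, 99.6 and 104 CPM in tChIP, and 108, 106 and 109 CPM and 113, 109 and 112 CPM in single ChIP. Both tChIP groups were below single ChIP, and the lines differed in tChIP by 0.42 ± 0.09 (adjusted p = 7.02e-05). In the Camk2a line the distal Nlgn1 region was higher in tChIP (0.35 ± 0.05, adjusted p = 2.14e-09) and the proximal one lower (-0.20 ± 0.07, adjusted p = 0.00455). The latter call was lost with DESeq2 (0.0537), without the 40% weakest regions (0.069), and without the Camk2a single ChIP replicate 1 (0.0195) or 3 (0.0127) or the Camk2a tChIP replicate 1 (0.108, at a log2 fold change of -0.136).

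The other 3 were upstream starts of Ank2, Gpm6a and Lsamp. The Ank2 region (chr3:127200646-127202691), shared with a start of Gm4392, differed between the lines in tChIP by 0.32 ± 0.10 (edgeR adjusted p = 0.00730), a call lost with DESeq2 (0.0539), with library totals (0.0389), and without the Rosa tChIP replicate 1 (0.168, at a log2 fold change of 0.207) or 3 (0.0165) or the Camk2a tChIP replicate 1 (0.0111) or 3 (0.034). At Gpm6a the upstream region (chr8:55864487-55866155) had 34.4, 34.0 and 25.6 CPM in Rosa tChIP and 21.9, 20.6 and 24.4 CPM in Rosa single ChIP. Each Rosa tChIP library thus exceeded each single ChIP library there, opposite to Gpm6a P1. The lines differed in tChIP by -0.05 ± 0.15, given without a test because Gpm6a was chosen by its fall in Rosa tChIP. The distal Lsamp region (chr16:39984198-39987045), 1546 kb upstream of the nearest start in GENCODE M1, differed by 0.44 ± 0.11 in tChIP (adjusted p = 3.86e-04).

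A list of 30 other genes of the same families and partners, chosen with earlier results of these data known, had 43 TSS regions in 29 genes. Between the lines in tChIP 33 were higher in the Camk2a line, 1 was lower and 9 were not called, with a median log2 fold change of 0.74, where 17.0% of all regions were higher and 14.6% lower. In tChIP against single ChIP of the Camk2a line 27 were higher and 2 lower, beside 25.3% and 22.6% of all regions. In single ChIP between the lines none was called, beside 2.15% of all regions. By family, the 4 other IgLONs had 6 of 6 regions higher, the other neurexins and neuroligins 7 of 8, the L1 family and contactins 7 of 8, the other Cntnap genes 4 of 5, ankyrin-1 and the spectrins 5 of 9, the other Dlg genes 3 of 5 and Gpm6b, a homologue of Gpm6a, 1 of 2. In tChIP against single ChIP of the Camk2a line, 0 of the Gpm6b regions were higher and 1 was lower. The regions with the largest rise were at Dlg1, a scaffold related to Dlg2 (log2 fold change 1.59), at Cntnap5b (1.498) and at Opcml, another IgLON (1.33). The 1 lower region was a weak Dlg3 promoter on the X chromosome (-1.21), with means of 14.3 CPM in Rosa tChIP and 6.05 CPM in Camk2a tChIP. The other Dlg3 region had means of 51.8 CPM and 97.9 CPM, respectively, and was called higher (0.93, edgeR adjusted p = 1.79e-13).

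As a description over the 12 libraries, the TSS region whose log2(CPM + 1) followed Ank3 P1 most closely among 12558 compared was that of Scg2 (Pearson r = 0.996), then Rtn1 (0.992) and Neto1 (0.989), against a median r of 0.144 over the regions compared. For Gpm6a P1 they were Rgs2 (0.987), Mtap2 (0.980) and Atp1b1 (0.979), against 0.245. The points share libraries and depth, and fall into the 4 groups.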

How the data were processed

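The deposited files were BED tables of counts, 1 per library, that the authors made from single-end reads mapped to mm9 with repeat reads and duplicates removed. Reads were counted by the authors over 1 common list of H3K4me3 peaks in each of the 12 H3K4me3 libraries. The submitters' processing notes name Bowtie 1.0.0, Bowtie2 2.1.0, SAMtools 0.1.19 and bedtools 2.17.0. The 12 input and FLAG libraries were not analysed here.

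All counts of 17993 regions were fitted with edgeR 4.0.16 (quasi-likelihood F test, TMM, no filter, no covariate; in R 4.3.3), p-values were adjusted by Benjamini-Hochberg over all regions, and a call needs an adjusted p under 0.01. The SE of a log2 fold change was taken as its absolute value over the root of F. Counts of any 2 replicates differed about as sampling noise does, with chi-square per degree of freedom of 1.03 to 1.09, and no library was a copy of another. The fit was tested on simulated data.

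Members, lists and tests were chosen with earlier results of these data known. Named were the regions at GENCODE M1 starts of the 9 genes, with values for the strongest of each gene and for those called between lines in tChIP, the extremes among regions at no start, up to 3 related regions per direction, and the 3 closest patterns. No p is given for the Rosa contrast, nor for regions of Ank3 and Gpm6a where Rosa libraries enter. RefSeq promoters (GRCm38.p6) were matched to mm9 exactly; Ank3 had no entry. Base sequences were read from mm9. Alternatives were a DESeq2 1.42.0 Wald test, other scalings, filters, start rules, thresholds, a replicate block and leaving out each library.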

Additional observations from a re-analysis of the deposited data

Results flagged for a closer look

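The line difference differed between tChIP and single ChIP, by the interaction term of the edgeR fit over 12 libraries, at 15 of the 19 tested regions. The term contains the Rosa contrast by which the genes were chosen, so these calls are not independent of that choice. The log2 interaction (tChIP line difference minus single ChIP line difference) was 0.83 at Ank2 P1, 0.80 at Ank2 P2, 0.48 at Ank2 P3 and -1.21 at Ank2 P4. It was 0.97 at Nfasc P1, 1.30 at Cntnap2 P1, 0.92 at Cntnap2 P2, 1.05 at Nrxn3 P1, 1.48 at Nrxn3 P2 and 0.34 at Lsamp P1. At Dlg2 it was 1.33 for P1, 0.64 for P2, 0.71 for P3, 1.36 for P5 and 1.35 for P7. Ank2 P4 was the 1 region with a negative value. Cntnap2 P2, Dlg2 P3 and Lsamp P1 lost their call with DESeq2 (adjusted p = 0.0238, 0.0147 and 0.0299) and with library totals (0.0132, 0.0125 and 0.0673). Without single libraries their adjusted p rose to at most 0.0315, 0.0395 and 0.25, the last for Lsamp P1 without the Rosa tChIP replicate 1, where its value was 0.184.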

How the results depend on the processing

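Among the 19 tested promoter regions, those called between the lines in tChIP kept their direction and their call under every alternative in which they were tested. In the Camk2a line and in the interaction, no called promoter region changed direction, and calls were lost at those named in the text (13 and 25 times over all alternatives). Nrxn3 P1 passed in the Camk2a line without the weakest regions (adjusted p = 0.00607). Values that changed sign were uncalled or given without a test. Without 1 library, in the Camk2a line Cntnap2 P3 ranged from -0.672 to 0.0452, Lsamp P1 from -0.0301 to 0.0581 and the distal Lsamp region from -0.0435 to 0.117, and in tChIP between the lines the upstream Gpm6a region ranged from -0.167 to 0.0241. In single ChIP between the lines, the ranges without 1 library were -0.0921 to 0.00337 for Ank2 P1, -0.0186 to 0.0987 for Cntnap2 P1, -0.338 to 0.101 for Cntnap2 P3, -0.00745 to 0.112 for Dlg2 P2, -0.0788 to 0.0859 for Dlg2 P5 and -0.0180 to 0.106 for Dlg2 P7, and Ank2 P3 was 0.00399 with library totals and 0.0111 without the weakest regions. The Rosa median of -0.50 became -0.40 with library totals and ranged from -0.55 to -0.49 without 1 library. Without the 40% of regions that had the fewest counts, there remained 13 regions in the Camk2a line, of which 2 were lower, and 11 in the line comparisons, of which 0 were lower in tChIP, 9 higher in the interaction and 0 lower in it; Ank2 P4 was among those left out. Adding RefSeq starts gave 1 region higher in single ChIP, the distal Nlgn1 region. Among the related genes, the count lower in tChIP was 2 with all 12 libraries in one fit, 4 with library totals, 2 with the size factors of DESeq2, and 1 to 2 without 1 library. Libraries with the same replicate number did not deviate together (correlations from -0.02 to 0.04). Because replicates differed about as sampling noise does, these correlations cannot show whether single ChIP and tChIP of the same number shared a lysate. The labels give each number of a line its own input, FLAG, single ChIP and tChIP library, as for libraries made from 1 preparation. The main fits do not pair single ChIP and tChIP libraries. With the number as a block, no call changed at the tested regions among the 21, also in the Camk2a line and in the interaction. Between the lines the same number stands for different animals, so the block pairs no lysates there. In that comparison in tChIP, 14 regions were higher and 1 lower with the block, while the upstream Ank2 region lost its edgeR call (adjusted p = 0.0114). Depth limits Cntnap2 P3 and Dlg2 P6 among the 21 regions, with 209 and 222 counts over all libraries. The fewest counts were at the region inside Nlgn1 (50), followed by weak regions inside Ank3 and Nrxn3 (from 81).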
